A study of Mus musculus with 6 samples.

Results

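Genes for the proteins of the mitochondrial ribosome were described in the brain of female and male mouse embryos. They were taken as every transcript ID whose gene symbol began with Mrpl or Mrps and a number, which gave 79 of the 23485 IDs in the count tables. These 79 IDs belonged to 72 genes on 17 chromosomes. The large subunit symbols (Mrpl) held 52 IDs of 47 genes, and the small subunit symbols (Mrps) held 27 IDs of 25 genes. Samples were whole brains of wild-type C57BL/6 embryos at E15.5 (embryonic day), with 3 female and 3 male samples. Sex was the only difference between the groups in the labels, and embryos had been sexed by their gonads. RNA of several embryos was pooled for each sample, so the spread between samples is a spread between pools. Stranded total RNA libraries were sequenced, and the values were read counts per RefSeq transcript ID.

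The mitochondrial ribosome translates the few mRNAs made from mitochondrial DNA, all of which encode subunits of the respiratory chain and of ATP synthase. Its rRNAs come from mitochondrial DNA, while all of its proteins are encoded in the nucleus and imported. Many of these proteins have a counterpart in the bacterial ribosome, and others are found only in mitochondria. The small subunit binds and decodes mRNA, and the large subunit forms the peptide bond.

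Totals ranged from 4908565 to 10294443 counts per sample. The mitochondrial ribosomal protein IDs took 0.246% to 0.313% of each total. Levels are given as CPM, which scale the counts of every sample to 1 common total after TMM normalisation. Where a count is 0, up to 3 counts remain possible, or 0.291 to 0.611 CPM depending on the sample, from counting error only. The sex markers Xist, Ddx3y and Kdm5d separated the samples as labelled. Eif2s3y was at 0 in all females but at only 0.207 CPM in male sample 1, which is within what a count of 0 allows in the females. Neuronal markers were abundant, with a summed CPM of 2393 to 3399. RNA of other tissues was also present, since fibroblast markers summed to 11830 to 16960 CPM and muscle markers to 1935 to 2819 CPM. In these bulk samples, fewer cells of a type and less RNA per cell cannot be told apart.

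The genes fell into well-counted and nearly uncounted ones, with no ID between a mean of 19.8 and 64.8 counts per sample. Above that gap were 57 IDs, 1 for each of 57 genes, with means up to 794.5 counts. Below it were 22 IDs. For 15 genes no ID lay above the gap. These were the large subunit genes Mrpl2, Mrpl4, Mrpl23, Mrpl30, Mrpl42, Mrpl48, Mrpl55 and Mrpl58, and the small subunit genes Mrps2, Mrps10, Mrps12, Mrps14, Mrps17, Mrps23 and Mrps33.

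The low counts followed the number of transcripts that RefSeq lists for a gene. Of the 22 genes with several RefSeq transcripts, 14 had a best ID under 50 counts. Of the 50 genes with 1 transcript, only Mrpl23, a protein at the exit of the peptide tunnel, did. Its counts were 13, 12 and 16 in female samples 1 to 3 and 21, 31 and 26 in male samples 1 to 3. The same held over all NM (mRNA) IDs in the tables. Their median was 121.1 counts for the 11458 IDs of genes with 1 transcript and 3.17 counts for the 8098 IDs of genes with several. How reads shared by several transcripts were assigned is not given in the sources used here, and its part in these low counts was not tested.

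**Figure D1:**
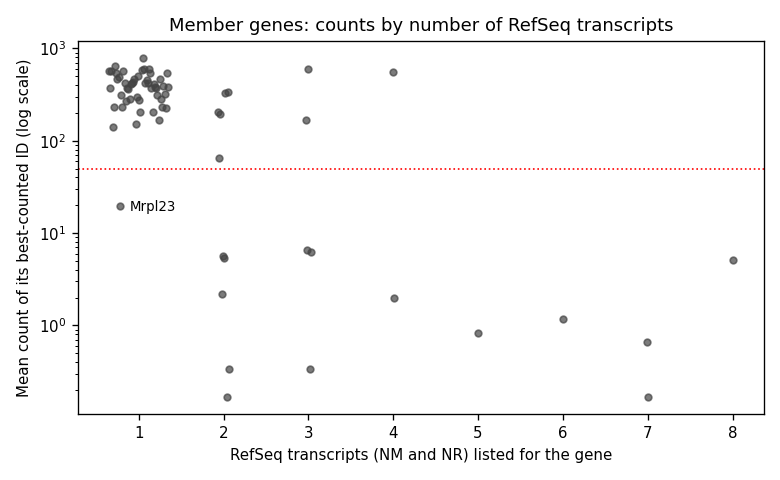
Each point is 1 of the 72 genes, placed by the number of RefSeq transcripts listed for it (horizontal) and by the mean count over 6 samples of its best-counted ID (vertical, log scale). The dotted line is at 50 counts. Mrpl23 is the only gene with 1 transcript below the line, while 14 of the 22 genes with several transcripts lie below it.

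Several genes below the gap had hardly any counts. Mrpl58 encodes a peptidyl-tRNA hydrolase that became a ribosomal protein. Its only ID here was a non-coding one, NR_154991, with 0 to 2 counts per sample. Mrpl48 was also represented only by non-coding IDs (NR_153425, NR_003559 and NR_153424), each with 0 to 2 counts per sample. The 2 IDs each of Mrpl4, Mrps12 and Mrps14 had means of 0.5 to 5.67 counts. Mrpl30, Mrpl42, Mrpl55, Mrps2, Mrps23 and Mrps33 had means of 0.167 to 2.17 counts. In all, 16 IDs had no more than 9 counts in any sample and were not tested, which left 11 genes without a test. The remaining 63 IDs of 61 genes, including 6 with a mean under 50 counts, were tested. Mrpl10, Mrpl53, Mrps11, Mrps18b, Mrps21 and Mrps36 were not analysed here.

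The 57 well-counted IDs differed in level. Mean CPM over the 6 samples ranged from 8.07 to 101.1, with a median of 48.5 and quartiles of 34.9 and 59.9. The highest was Mrpl50, a mitochondria-specific protein, with 3.65% of the summed CPM. To compare genes, CPM was divided by the length in kilobases of the longest annotated transcript (RPKM), which is approximate where a shorter transcript is the one in use. The RPKM range was 5.03 to 127.6, with a median of 34.3 and quartiles of 24.7 and 47.8.

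The highest level per length belonged to Mrpl52, a mitochondria-specific protein of the large subunit, at 112 ± 4.85 RPKM in females and 143.2 ± 18.6 in males (SD, n = 3). Mrpl54 followed at 90.4 ± 5.22 and 97.1 ± 21.6 RPKM, and Mrpl11 at 78.9 ± 8.51 and 95.8 ± 13.3 RPKM. Mrpl11 sits at the base of the stalk where translation factors bind. In both sexes Mrpl52 stood above Mrpl54 by more than 1 SD, while Mrpl54 and Mrpl11 were within their spread in males.

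Among small subunit symbols the order began with Mrps15 (80.9 ± 16.6 RPKM in females, 67.6 ± 16.7 in males). Next came Mrps16 (64.1 ± 5.58 and 79.1 ± 17.2 RPKM) and Mrps18a (45.9 ± 6.38 and 58.6 ± 7.21 RPKM). The protein of Mrps18a sits in the large subunit in spite of its symbol, and Mrps35 followed (43.6 ± 5.64 and 48.5 ± 3.68 RPKM). Both Mrps15 and Mrps16 have bacterial counterparts. Mrps15 was above Mrps16 in females, by about 1 SD of Mrps15, and below it in males, within their spread. The lowest well-counted member was Mrpl15, at 5.03 RPKM over both sexes. Mrps25, a mitochondria-specific protein, was lowest of the well-counted small subunit IDs by the mean over both sexes, at 7.82 ± 0.259 RPKM in females and 8.37 ± 0.719 in males. In females alone Mrps5 (7.44 RPKM) and Mrps26 (7.67 RPKM) were slightly lower. The longest annotated transcripts of Mrps25 and Mrpl15 have 6073 and 4203 bases, which lowers a value per length. RefSeq also lists 3 transcripts for Mrpl15, and genes with several transcripts often had low counts per ID. The lowest tested IDs of either subunit were low-count ones, namely Mrpl1 (NM_001039084), Mrpl2, Mrpl21 (NM_172252), Mrps10 and Mrps17, at 0.323 to 0.811 RPKM.

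Symbol and place do not always match, since Mrps18a and Mrps30 carry small subunit symbols but their proteins sit in the large subunit. Both are counted by symbol, with the small subunit, in the sums, the large over small ratio and the subunit medians. Mrps18c, a paralog of Mrps18a, stays in the small subunit, where it holds the place of bacterial S18. Mrps18a was measured at 42.4, 34.3 and 45.2 CPM in female samples 1 to 3 and at 56.6, 54.2 and 44.6 CPM in male samples 1 to 3. Mrps18c was measured at 26.9, 25.7 and 22.3 CPM in females and at 31.8, 22.3 and 24.7 CPM in males. Both overlapped between the sexes. The log2 fold change, given throughout as male over female, was 0.34 ± 0.16 (SE) for Mrps18a, 0.22 ± 0.15 for Mrps30 and 0.08 ± 0.19 for Mrps18c. Without male sample 1 it was 0.12 for Mrps30 and -0.08 for Mrps18c. With each sample's trends with transcript length and GC content removed, it was 0.18 for Mrps18a.

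The family as a whole was then summed in each sample. Large subunit IDs summed to 1790, 1868 and 1910 CPM in female samples 1, 2 and 3 and to 2376, 2066 and 1869 CPM in male samples 1, 2 and 3. Small subunit IDs summed to 683.6, 716.3 and 761.6 CPM in females and to 953.5, 867.6 and 748.1 CPM in males. Male samples 1 and 2 were above every female sample in both subunits, and male sample 3 lay within the female range, so the sexes overlapped. The ratio of male to female means was 1.13 for the large subunit, 1.19 for the small subunit and 1.15 for all 79 IDs. The large over small ratio stayed between 2.38 and 2.62 in the 6 samples.

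**Figure D2:**
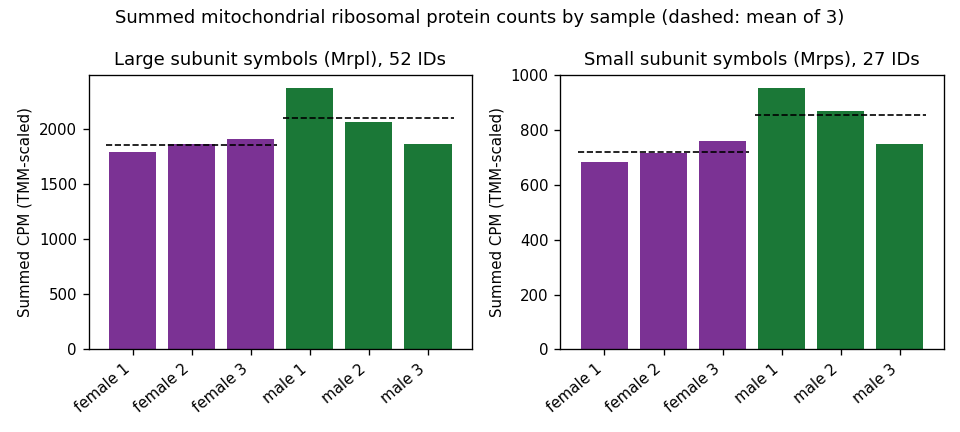
Bars show the summed CPM of the 52 large subunit IDs (left) and the 27 small subunit IDs (right) in each sample, and dashed lines the mean of the 3 samples of a sex. Male samples 1 and 2 are above all females, while male sample 3, at 1869 and 748.1 CPM, is within the female range.

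The single members were then compared across samples. Each of the 57 well-counted IDs was set against its own mean over the 6 samples, as log2(CPM + 0.5). In male sample 1, 54 of the 57 were above their mean, with a median deviation of 0.29 on the log2 scale. In male sample 2 there were 40, with a median of 0.07, and in male sample 3 there were 17, with a median of -0.03. Female samples 1, 2 and 3 had 8, 20 and 20 members above their mean, with medians of -0.16, -0.11 and -0.04. The male medians thus spanned from near the highest female median to well above it, though fewer members were above their mean in male sample 3 than in female samples 2 and 3. Over all tested IDs the median deviation lay between 0.01 and 0.03 in every sample.

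**Figure D3:**
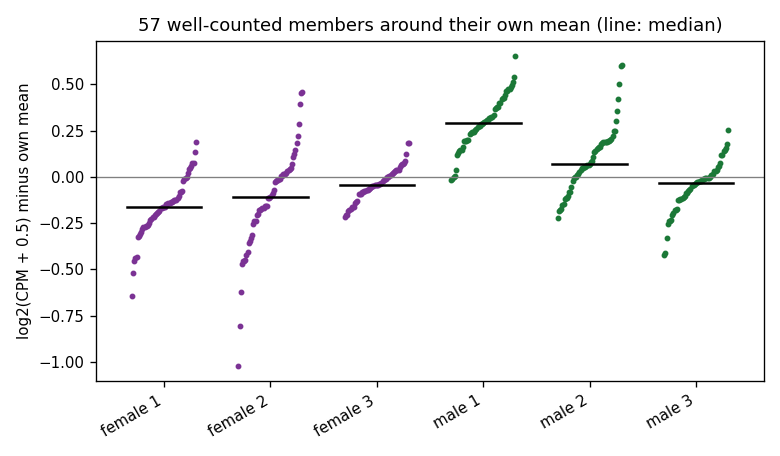
Points are the 57 well-counted members in each sample, as log2(CPM + 0.5) minus the member's own mean over 6 samples, sorted within a sample, and lines are medians. The median is highest in male sample 1 (0.29) and lowest in female sample 1 (-0.16), and that of male sample 3 (-0.03) is near that of female sample 3 (-0.04).

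By edgeR's quasi-likelihood test, 0 members passed an adjusted p of 0.05 between the sexes, and the lowest value was 0.338 for Mrps26. Over all 13374 tested IDs, 4 passed, which is 0.0299%. At an unadjusted p under 0.05, 10 of the 63 tested members were higher in males (15.9%) and 0 were higher in females. Over all tested IDs these shares were 6.68% and 4.82%. With DESeq2 the call was 1 member (Mrps26), against 0.8% of all tested IDs, and with DESeq2 and 1 RUVr factor it was again Mrps26 alone, against 2.62%. The count of 10 depended on single samples, as it was 3 when female sample 1 or female sample 2 was left out, 4 when male sample 1 was and 19 when male sample 3 was.

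By direction alone, 52 of the 63 tested members (82.5%) had a fitted level higher in males and 11 a lower one. Over all tested IDs the share higher in males was 49.0%. The median log2 fold change was 0.21 over the 43 large subunit IDs, of which 33 were positive, and 0.26 over the 20 small subunit IDs, of which 19 were positive. The median of all tested IDs was -0.01. Without male sample 1 the medians were 0.09 and 0.13, and without male sample 3 they were 0.31 and 0.33. Of the 63 tested members, 12 had every male sample above every female sample, which held for 8.7% of all tested IDs. Only 1 member, the low-count Mrpl1 ID NM_001039084, had every female sample above every male sample, which held for 8.35% of all tested IDs. The count of 12 was 25 without female sample 3 and 32 without male sample 3, and fewer samples overlap less by construction. Of the 12, 10 were large subunit members (Mrpl15, Mrpl18, Mrpl21, Mrpl33, Mrpl36, Mrpl38, Mrpl40, Mrpl44, Mrpl49 and Mrpl52) and 2 were small subunit members (Mrps26 and Mrps31).

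**Figure D4:**
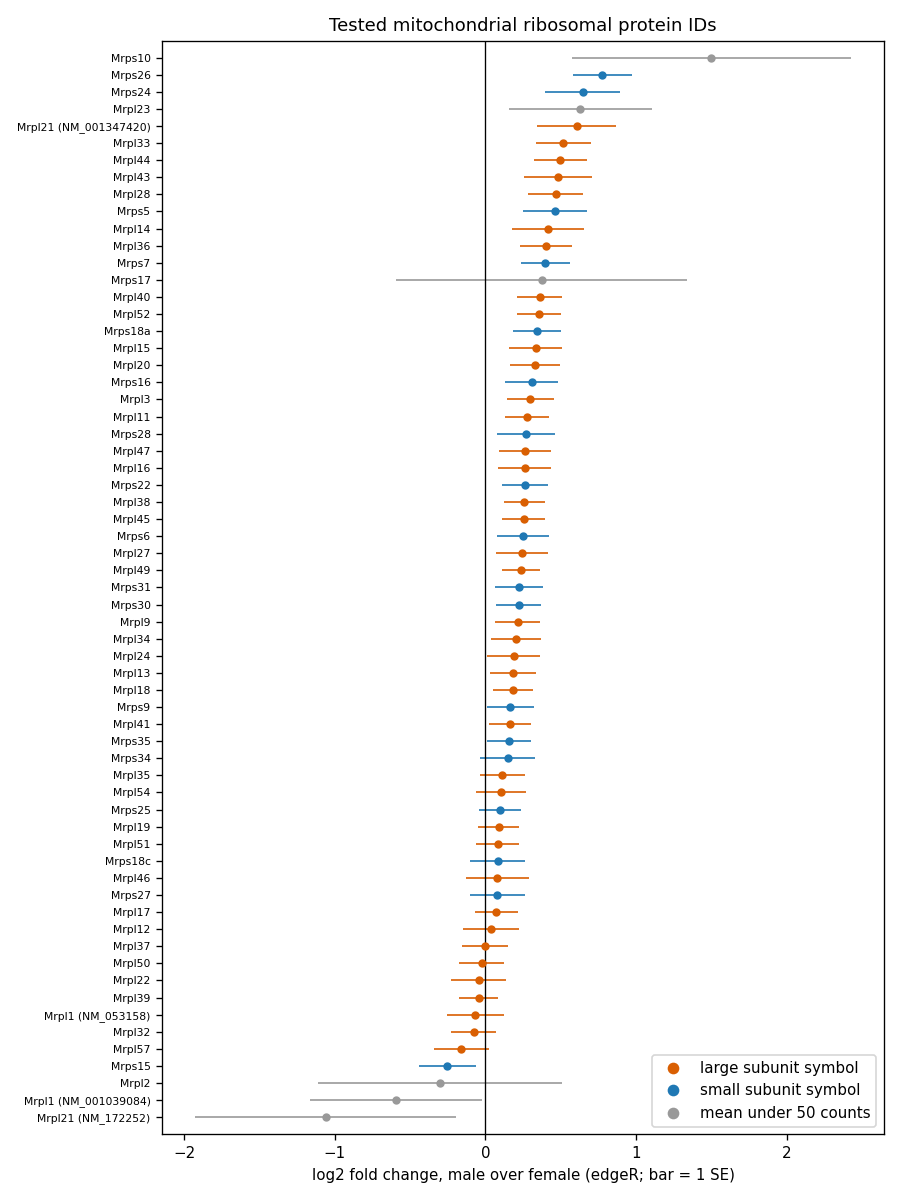
Points are the log2 fold changes (male over female) of the 63 tested IDs from edgeR, and bars are 1 SE either way. Colours mark the subunit of the symbol, and grey marks IDs with a mean under 50 counts, whose bars are the widest. Of the 63 points, 52 are to the right of 0, and the well-counted ones lie between -0.25 and 0.78.

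The fold changes of the well-counted members ran from -0.25 to 0.78, with SEs of 0.13 to 0.26, and 49 of the 57 were positive. Members with a bacterial counterpart had medians of 0.21 in the large subunit (28 tested) and 0.31 in the small subunit (11 tested). Mitochondria-specific members had medians of 0.16 in both (15 and 7 tested). Of the 4 tested members of the central protuberance, the crown of the large subunit, 3 had all male samples above all female samples (Mrpl18, Mrpl38 and Mrpl40), and Mrpl46 did not. Over all tested IDs that share was 8.7%, and a class of 4 is too small to be read against it. Of the 3 stalk members (Mrpl11, Mrpl12 and Mrpl54), all overlapped between the sexes.

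Mrps26, a mitochondria-specific protein of the small subunit, had the smallest p. It was measured at 31.2, 24.1 and 43.1 CPM in female samples 1 to 3 and at 59.4, 60.4 and 50.7 CPM in male samples 1 to 3. All 3 male samples were above all 3 female samples. Means were 32.8 ± 9.60 and 56.9 ± 5.32 CPM (SD, n = 3), a log2 fold change of 0.78 ± 0.19 (SE) with an edgeR adjusted p of 0.338. The adjusted p was 0.0307 with DESeq2, 0.0107 with DESeq2 and 1 RUVr factor, 0.00231 in edgeR without a filter on low counts and 0.0461 in edgeR without female sample 3, and it ranged up to 0.809 over the alternatives. The gene has 4 exons at chr2:130389478-130394431 (NCBIM37, plus strand). There it overlaps 4930473A02Rik on the opposite strand, and whether counting used strand is not given in the sources used here.

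Of the other small subunit members, Mrps24, which lines the entry of the mRNA channel, was measured at 34.8, 18.9 and 42.5 CPM in females and at 54.9, 59.4 and 38.4 CPM in males. Its log2 fold change was 0.64 ± 0.25, with an edgeR adjusted p of 0.379. The sexes overlapped through male sample 3, and female sample 2 was low. Without female sample 2 the log2 fold change was 0.39. Mrps24 passed only in edgeR without a filter on low counts, at an adjusted p of 0.0306, and its annotated span overlaps Urgcp on its own strand. Mrps7, a protein of the head of the small subunit, was measured at 60.2, 47.4 and 66.1 CPM in females and at 88.7, 75.5 and 65.6 CPM in males, with a log2 fold change of 0.40 ± 0.16. Its lowest male sample was just below its highest female sample, and its span overlaps Gga3 and Mif4gd on the opposite strand.

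In the large subunit, Mrpl33 and Mrpl44 came first by p. Mrpl33, a small protein with a bacterial counterpart, was measured at 22.8, 29.5 and 30.9 CPM in females and at 44.4, 42.3 and 32.8 CPM in males (log2 fold change 0.52 ± 0.18). Mrpl44, which has an RNase III-like fold, was measured at 26.2, 29.7 and 34.5 CPM in females and at 50.3, 42.3 and 35.4 CPM in males (log2 fold change 0.50 ± 0.18). In both, the sexes did not overlap, but male sample 3 was close to the highest female. Mrpl28 was measured at 71.0, 44.5 and 62.2 CPM in females and at 98.3, 78.3 and 69.4 CPM in males (log2 fold change 0.47 ± 0.18), and here male sample 3 was below female sample 1. The value of Mrpl28 was 0.30 without female sample 2 and 0.26 with each sample's trends with length and GC content removed. The edgeR adjusted p was 0.347 for Mrpl33, 0.356 for Mrpl44 and 0.383 for Mrpl28. The annotated span of Mrpl33 overlaps Bre on its own strand, and that of Mrpl44 overlaps Wdfy1 on the opposite strand.

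The remaining members with an unadjusted p under 0.05 were Mrpl52 (log2 fold change 0.36 ± 0.15), Mrpl40 (0.36 ± 0.15), Mrpl36 (0.40 ± 0.17) and the better-counted ID of Mrpl21 (0.61 ± 0.26), all without overlap of the sexes. With length and GC trends removed the value of Mrpl52 was 0.17. Mrpl52 was measured at 48.0, 44.1 and 46.4 CPM in females and at 67.3, 52.3 and 57.3 CPM in males. Its female samples lay close together, and the male samples were spread.

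**Figure D5:**
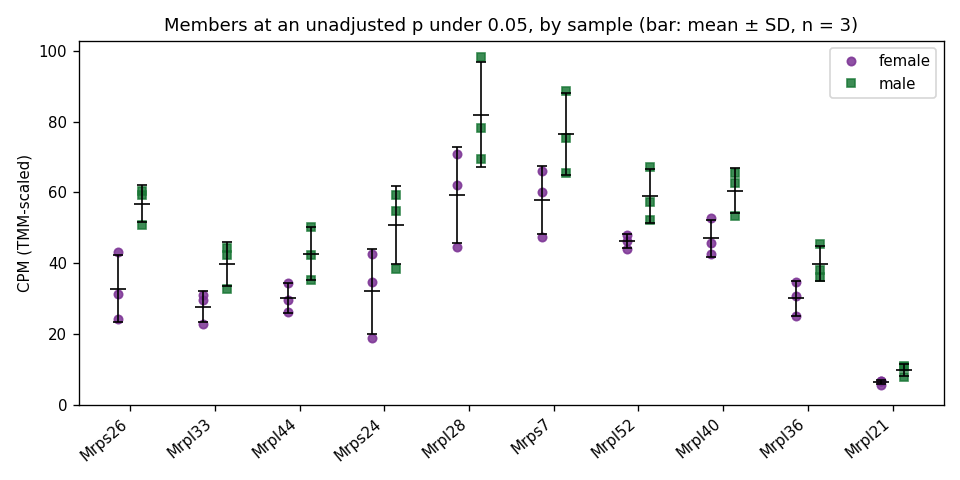
CPM of the 10 members with an unadjusted p under 0.05, in order of p, with circles for the 3 female and squares for the 3 male samples and black bars for the mean ± SD. Mrpl21 is the ID NM_001347420. The sexes overlap in Mrps24, Mrpl28 and Mrps7 and do not overlap in the other 7.

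Among members with a lower fitted level in males, only Mrps15, Mrpl57 and Mrpl32 of those with the smallest p were well counted. Mrps15 was measured at 67.9, 93.7 and 65.8 CPM in females and at 80.9, 58.4 and 50.7 CPM in males, a log2 fold change of -0.25 ± 0.19 with an edgeR adjusted p of 0.615. Female sample 2 was high and male sample 1 lay within the female range. The value of Mrps15 was -0.08 when female sample 2 was left out, -0.11 when male sample 3 was and -0.47 when male sample 1 was. Mrpl57 had a log2 fold change of -0.16 ± 0.18 and Mrpl32, which is matured by a mitochondrial protease, one of -0.08 ± 0.15. Without female sample 2 both signs turned, to 0.05 and 0.01, and that of Mrpl32 also turned without male sample 3, to 0.01. The other three were low-count IDs, namely Mrpl2 (-0.30 ± 0.81), Mrpl1 NM_001039084 (-0.59 ± 0.57) and Mrpl21 NM_172252 (-1.06 ± 0.87). Leaving out single samples moved Mrpl2 between -0.72 (female sample 2) and 0.02 (female sample 1), and Mrpl21 NM_172252 between -2.23 (male sample 3) and -0.63 (male sample 1). Mrpl1 NM_001039084 was at -0.36 when male sample 1 was left out.

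Mrpl1 and Mrpl21 were the only genes with several IDs of which 1 was well counted, and their pairs of IDs shared a gene. Mrpl1 NM_053158 had a mean of 202.3 counts and a log2 fold change of -0.07 ± 0.19, which turned to 0.11 with length and GC trends removed and to 0.13 without female sample 2. The second ID, NM_001039084, had 15, 8 and 16 counts in females and 8, 10 and 14 in males. For Mrpl21, NM_001347420 was measured at 6.79, 5.58 and 6.73 CPM in females and at 10.9, 10.7 and 7.79 CPM in males. NM_172252 had 10, 8 and 6 counts in females and 2, 2 and 12 in males. The paired IDs of Mrpl21 thus had opposite signs, but how their shared reads were split is unknown.

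Some members varied widely within a sex. Among the 57 well-counted members, the widest ranges of log2 CPM within a sex were 1.15 for Mrps24, 0.88 for Mrpl46, 0.82 for Mrps26 and 0.74 for Mrpl14. Mrpl46, of the central protuberance, was measured at 48.4, 34.8 and 26.2 CPM in male samples 1 to 3 and at 36.9, 36.1 and 30.9 CPM in females. Mrpl14 was measured at 26.7, 16.9 and 15.8 CPM in males and at 14.2, 12.4 and 17.6 CPM in females. In both, male sample 1 was the highest of the 6, and leaving it out moved the log2 fold change from 0.08 to -0.19 for Mrpl46 and from 0.42 to 0.13 for Mrpl14. With length and GC trends removed these were 0.01 and 0.18. Mrpl12, the stalk protein that recruits translation factors, was highest in male sample 1 as well, at 62.0 CPM against 40.3 to 51.6 CPM in the other samples. Its log2 fold change of 0.03 ± 0.19 changed sign with upper-quartile scaling (-0.03), with removal of length and GC trends (-0.12) and with 1 RUVr factor (-0.02 in DESeq2, -0.01 in edgeR). It also changed sign when male sample 1 (-0.20) or female sample 3 (-0.06) was left out.

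Promoters of members are given as a description of sequence, and their part in the levels was not tested. Windows of 300 bases, from 250 before to 50 after a start site, were taken from RefSeq (GRCm38.p6), which held 69 windows for 63 of the 72 genes. Mrpl4, Mrpl13, Mrpl15, Mrpl19, Mrpl38, Mrpl54, Mrps28, Mrps34 and Mrps35 had no entry. The 120 bases just upstream of the start are shown for Mrps26, Mrpl44 and Mrpl28, which stand for a member with an ETS-type match, a member with an NRF1 match and a member with no match. NRF1 and the ETS factor GABP are known regulators of nuclear genes for mitochondrial proteins. Capitals mark the ETS match in Mrps26, which begins 14 bases upstream of the start and reads CCGGAAG on the other strand, and the NRF1 match in Mrpl44, which begins 35 bases upstream. The positions are chr2:130563637-130563756 for Mrps26, chr1:79775898-79776017 for Mrpl44 and chr17:26123383-26123502 for Mrpl28, all on the plus strand.
Mrps26: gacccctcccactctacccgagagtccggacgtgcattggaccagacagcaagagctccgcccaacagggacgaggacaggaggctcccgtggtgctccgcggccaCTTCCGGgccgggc
Mrpl44: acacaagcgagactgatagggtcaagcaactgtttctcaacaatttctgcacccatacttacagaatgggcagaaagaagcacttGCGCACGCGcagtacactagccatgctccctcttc
Mrpl28: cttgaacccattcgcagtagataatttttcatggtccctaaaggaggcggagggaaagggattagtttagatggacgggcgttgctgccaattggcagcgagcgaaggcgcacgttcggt

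The motifs were searched on both strands of the whole windows, and none of them is contained in another. The ETS motif CCGGAAG was in 33.3% of member windows and 8.86% of all 32851 windows. The NRF1 motif GCGCANGCG was in 18.8% and 6.25%, and the YY1 motif AAGATGGCG in 10.1% and 1.40%. The GC box GGGCGG was in 52.2% and 35.7%, and the TATA box TATAAA in 7.25% and 13.6%. The 300-base window of Mrps26 also held an NRF1 match across the start and a GC box 63 bases upstream of it. Mrpl28 held none of the motifs, which says only that these letters are not in this window. A match is a description of the sequence and no measure of binding.

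Related genes of mitochondrial translation were described by the same test, and none passed the adjusted threshold. Of the 5 mitoribosomal proteins with other symbols, all tested, 0 had an unadjusted p under 0.05, and the median log2 fold change was 0.15. Gadd45gip1, a large subunit protein at the tunnel exit, had a log2 fold change of 0.21 ± 0.14, and Aurkaip1 of the small subunit had 0.15 ± 0.15. Dap3, the GTP-binding protein of the small subunit, had a mean of 6.17 counts. Of 12 tested translation factors 0 had an unadjusted p under 0.05 in either direction. That count was 3 without a filter on low counts, 2 without female sample 3, and 1 without male sample 3, with length and GC trends removed or with 1 RUVr factor in either tool. Their median was 0.05, with 8 higher and 4 lower in males. By p the first were Slirp and Tsfm. Slirp, which binds mitochondrial mRNAs, had 0.40 ± 0.20, and the elongation factor Tsfm had 0.42 ± 0.23. In the other direction, the elongation factor Gfm1 had -0.13 ± 0.12, with all females above all males, and Gfm2, which acts in ribosome recycling, had -0.75 ± 0.46. Of 10 tested mitochondrial aminoacyl-tRNA synthetases, again 0 had an unadjusted p under 0.05, and 1 did without male sample 2 or with length and GC trends removed. Their median was 0.08, with 7 higher and 3 lower in males. Iars2 had 0.21 ± 0.12, Sars2 0.36 ± 0.22 and, in the other direction, Tars2 NM_001163619 -0.67 ± 0.45.

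Of 21 tested factors of ribosome assembly and rRNA modification, 4 had an unadjusted p under 0.05, all higher in males (19.05%, against 6.68% of all tested IDs), and the list's median was 0.11, with 18 higher and 3 lower. The count was 2 without male sample 1 and 2 with DESeq2, with or without the RUVr factor. Nsun4, which methylates the small subunit rRNA, was measured at 18.3, 18.5 and 21.2 CPM in females and at 27.7, 31.0 and 24.9 CPM in males (0.52 ± 0.17). Rpusd4, a pseudouridine synthase of the large subunit rRNA, had 0.55 ± 0.19. Of 9 tested regulators of mitochondrial transcription and biogenesis, 3 had an unadjusted p under 0.05, all higher in males (33.3%, against the same 6.68%). That count was 1 without female sample 2 and 2 without male sample 2. Tefm, the elongation factor of mitochondrial transcription, was measured at 11.0, 11.4 and 10.8 CPM in females and at 20.6, 15.9 and 17.3 CPM in males (0.70 ± 0.20, edgeR adjusted p 0.341). The nuclear receptor Esrra had 0.59 ± 0.20. The list's median was 0.13, with 7 higher and 2 lower in males. The lower ones were Gabpa, the DNA-binding subunit of GABP (-0.21 ± 0.11), in which all females were above all males, and the coactivator Ppargc1b (-0.31 ± 0.22). In Nsun4 and Tefm all male samples were above all female samples.

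Other large groups of housekeeping genes were also highest in male sample 1 and next in male sample 2. Cytosolic ribosomal proteins (67 tested) had a median log2 fold change of 0.33, with 27 at an unadjusted p under 0.05 higher in males and 1 in females (40.3% higher in males, against 6.68% of all tested IDs). Nuclear oxidative phosphorylation subunits (70 tested) had a median of 0.31, with 29 and 0 (41.4% higher in males). By direction alone, 58 of these (82.9%) and 51 of the cytosolic ribosomal proteins (76.1%) were higher in males. The summed CPM of oxidative phosphorylation subunits was 7126, 7520 and 8551 in females and 10890, 9681 and 8663 in males. This was a male over female ratio of 1.26 against 1.15 for the mitochondrial ribosomal proteins. Male sample 3 was here just above the highest female sample, where for the mitochondrial ribosomal proteins it was below it. All 3 groups have short transcripts, with a median of 1213 bases for the tested members, 867 for cytosolic ribosomal proteins and 763 for oxidative phosphorylation, against 2868 for all tested IDs. With each sample's trends with length and GC content removed, the member medians were 0.19 and 0.22, with 0.05 for all IDs.

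Markers of cell types also differed between samples. All 5 neuronal markers were detected, and their summed CPM was 2393, 2748 and 2719 in females and 3399, 3073 and 2587 in males. By this sum male samples 1 and 2 were above the females and male sample 3 was not. Most of it came from Tubb3, at 1227 to 1528 CPM in females and 1970, 1890 and 1493 CPM in males, and the 5 genes did not move alike. Map2 was lowest of all in male sample 1, at 517.7 CPM against 559.4 to 631.9 in females, and Stmn2 was above all females in male sample 1, at 767.0 CPM, and below them in male samples 2 and 3. Of the 5, only Dcx had all males above all females. Progenitor genes summed to 2446, 2573 and 2769 CPM in females and to 2868, 2815 and 2508 CPM in males, so that male samples 1 and 2 were above the females and male sample 3 was within their range. Of the 4 progenitor genes, only Sox2 had all males above all females, and Nes had a log2 fold change of -0.04. The 4 cartilage genes summed to 185.3, 95.5 and 156.1 CPM in females and to 54.4, 68.5 and 131.5 CPM in males. Here male samples 1 and 2 were the lowest. Muscle genes summed to 2485, 2819 and 2582 CPM in females and to 1935, 2142 and 2461 CPM in males, nearly all from Myh3. By this sum all females were above all males, but the muscle genes did not move alike. The better-counted Myl1 ID had a log2 fold change of 0.23 ± 0.20, with overlap of the sexes. Acta1 and the other Myl1 ID had few counts, lower fitted levels in males and overlap of the sexes. Choroid plexus genes summed to 420.6, 493.2 and 508.2 CPM in females and to 697.2, 627.4 and 528.2 CPM in males, nearly all from Ttr, so that all males were above all females, with male sample 1 the highest. Fibroblast, erythroid and epidermal sums overlapped between the sexes. The part of these markers in the levels of the mitochondrial ribosomal proteins was not tested.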

How the data were processed

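According to the study's methods and the submitters' processing notes, the authors trimmed reads with Trimmomatic 0.32, aligned them to mm9 with TopHat2 2.1.1, assembled transcripts with Cufflinks 2.2.1 and counted reads with featureCounts 1.5.1. The values deposited by the authors are raw counts per RefSeq transcript ID, 1 table per sample, each sample being pooled RNA. Strand and multiple-mapping settings are not given in the sources used here.

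Symbols came from a RefSeq gene table, and positions, lengths and overlaps from the GENCODE annotation of NCBIM37. Symbols were found for 23359 IDs and GENCODE genes for 21516. The test took IDs that reached 10 counts in any sample, with edgeR 4.0.16 (R 4.3.3; TMM, quasi-likelihood F test, Benjamini-Hochberg over all tested IDs, threshold 0.05), using all 6 samples and no covariates. The SE is the fold change divided by the root of F. The study used DESeq2 with RUVr, which was an alternative here (DESeq2 1.42.0). Tables were made with Python 3.11.15 and pandas 2.3.3. The test scripts were checked on simulated counts, with less spread than these data and larger changes than those of the well-counted members. That check does not show how well changes of the members' size are found.

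Named members were the 6 smallest p-values in each direction, the 3 highest and 3 lowest per length in each subunit, the 4 with the widest range within a sex, some of fixed interest, those with several IDs and those not tested. Other names were chosen after values were seen. The members and gene lists were chosen with earlier results of these data known. Alternatives were other normalisations, filters and tests, a replicate block, length and GC trends taken out, IDs summed per symbol, and each sample left out in turn. No sample was a copy of another (within a sex, chi-square divided by its degrees of freedom was 9.03 to 44.9). Labels give no batch, so no comparison within batches was made.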

Additional observations from a re-analysis of the deposited data

How the results depend on the processing

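The medians of both subunits and the ratio of summed CPM kept their direction under every alternative run. With upper-quartile scaling the medians were 0.15 and 0.20, beside -0.06 for all tested IDs, and without a filter on low counts 0.21 and 0.24, beside -0.11. Counts of calls moved most. IDs called numbered 107 with DESeq2, 351 with DESeq2 and 1 RUVr factor, 34 in edgeR with 1 RUVr factor and 276 without a filter on low counts, against 4 in the main comparison. Members called numbered 1, 1, 0 and 2 in these. Leaving out each sample in turn gave 4 to 51 IDs called (51 without female sample 3, 12 without male sample 1), 0 to 1 members called (1 without female sample 3), and 3 to 19 members at an unadjusted p under 0.05 higher in males. It gave 0 to 1 higher in females (1 without male sample 1), 14 to 32 members with all males above all females and 1 to 2 with all females above all males. With the IDs of a symbol summed, 0 members had all females above all males. The cause of these moves was not tested.

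The labels do not say whether equal replicate numbers mean paired samples. Deviations of same-numbered samples correlated at -0.29, -0.06 and -0.20, and so few values cannot decide whether samples shared a litter or batch. The replicate block gave 4 IDs called, 0 members called, 8 members at an unadjusted p under 0.05 and medians of 0.19 and 0.25, and changed no call of the members. With members of at least 50 mean counts only, an alternative chosen after seeing the data, the medians were 0.22 and 0.24. The SEs of the well-counted members, 0.13 to 0.26 with 3 pools a sex, limit what can be said of any single one.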
